A study of Homo sapiens with 12 samples.

Results

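The HOX cluster genes were taken as every row of the expression table whose symbol joins HOX with a cluster letter from A to D and a number, and 39 of 20345 rows met that rule, silent ones included. They were described in HGC-27, an established human gastric cancer cell line, in 12 RNA-seq libraries that form 4 groups of 3. The line without a named edit (WT) and cells that carry the label TEAD4 knockout (TEAD4KO) were compared, each without treatment and with GLUP, and all were grown in the same serum-containing medium. TEAD4 is the transcription factor through which the Hippo pathway reaches DNA, and GLUP is a cyclic peptide that the study built to bind TEAD4 and gather its molecules together, so the design asks what GLUP does to transcription and whether that depends on TEAD4. The labels give neither a dose, nor a time, nor how many clones the TEAD4KO cells came from, and the study's own text states more than one duration of treatment. Replicates are numbered 1, 2 and 3 where untreated and 14, 15 and 16 with GLUP, as in the titles. The study's methods speak of biological replicates for the RNA, but neither they nor the labels say that the replicates were separate cultures, so a p-value here measures only the spread between these libraries, which may be technical.

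HOX genes encode homeodomain transcription factors that give cells an address along the head-to-tail axis of the embryo. They lie in 4 clusters, and the order of the genes along each cluster follows the order in which they are used, from low paralog numbers at the head end to high numbers at the tail end and in the distal limb. Genes with the same number in different clusters are paralogs with related roles. Adult cells tend to keep a part of the pattern of the place they came from, Polycomb proteins hold the silent members shut, MLL-type methyltransferases help keep active members on, and the TALE proteins PBX and MEIS bind DNA together with HOX proteins. Many tumours express a disturbed set of HOX genes.

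Levels are in FPKM, in which the fragments of a gene are divided by its length and by the mapped fragments of the library. It is a scale per length, so that genes can be set side by side. Summed over all rows, libraries held between 375361 and 423757 FPKM, the sequencing depth behind it is unknown, and no interval that needs depth is given. The TEAD4 transcript was not lower under the label, at 22.9 to 25.8 FPKM in the 6 WT libraries and 26.0 to 30.1 FPKM in the 6 libraries labelled TEAD4KO. A transcript level does not check the knockout label, which was not tested. Of 14 gastric epithelial markers in the table, 3 reached 1 FPKM (MUC1 at 9.02, KRT8 at 5.78 and CDH1 at 2.75 FPKM), the epithelial markers EPCAM (0.0938 FPKM) and KRT18 (0.168 FPKM) were low, and TFF1, TFF2 and GKN1 were listed at 0 in every library. Of 11 mesenchymal markers 10 reached 1 FPKM, from PDGFRB at 1.02 FPKM and ZEB2 at 5.40 FPKM to COL3A1 at 326 FPKM and VIM at 1420 FPKM, and CDH2 was at 0.0846 FPKM. Of the blood and endothelial markers, CD3E, HBB and CDH5 were listed at 0. On the first principal component of all rows tested, the WT libraries lay between -16.2 and -3.71 and 4 libraries labelled TEAD4KO lay at 9.91 or higher, whereas TEAD4KO untreated replicate 1 (-0.962) and TEAD4KO GLUP replicate 16 (-5.26) lay nearest to WT. Counts of HOX genes called between genotype labels are therefore also given without those 2 libraries, and those of the other lists are not. These are bulk samples, in which fewer cells of a kind and less RNA per cell cannot be told apart.

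The start regions of the highest and the lowest HOX gene are shown first, because the clusters are known for dense CG dinucleotides at their starts. RefSeq start windows (250 bases before to 50 bases after a start, GRCh38.p14, a newer build than the one used for gene positions below) matched 20 of the 39 genes and gave 27 windows. Their median number of CG dinucleotides was 22, against 14 over all 35116 windows, and their median ratio of observed to expected CG was 0.849 against 0.579. The lines give the 250 bases before the start, 5′ to 3′ on the strand of the gene, with each CG in capitals.
HOXA13 (chr7:27200092-27200341, minus strand): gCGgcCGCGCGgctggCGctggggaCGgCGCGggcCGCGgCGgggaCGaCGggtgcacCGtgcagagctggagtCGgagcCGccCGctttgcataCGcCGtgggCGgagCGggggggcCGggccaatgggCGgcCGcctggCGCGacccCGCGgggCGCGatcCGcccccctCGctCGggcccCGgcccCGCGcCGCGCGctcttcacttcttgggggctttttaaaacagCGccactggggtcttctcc
HOXB1 (chr17:48531012-48531261, minus strand): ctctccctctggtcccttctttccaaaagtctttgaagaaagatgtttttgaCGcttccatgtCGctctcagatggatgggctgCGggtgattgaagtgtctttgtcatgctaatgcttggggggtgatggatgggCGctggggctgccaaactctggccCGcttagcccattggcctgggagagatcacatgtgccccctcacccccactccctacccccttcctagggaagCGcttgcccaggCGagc
The stretch before HOXA13 held 40 CG dinucleotides and that before HOXB1 held 7. A dense window did not go with a high level throughout, since HOXD1, at a mean of 0.0262 FPKM, had 36 CG dinucleotides in its 300-base window against 44 for HOXA13 at 27.1 FPKM.

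A second start window is shown because a pair of members with different results share it. RefSeq gives HOXC4 and HOXC5 the same start, and these genes are known to share a noncoding exon at that end. In the annotation used for gene positions they do not begin together, with HOXC4 from 54410715 and HOXC5 from 54426834 (GRCh37). In the line below the capitals mark CATTCC, the core of the M-CAT element that TEAD proteins bind.
HOXC4 and HOXC5 (chr12:54016638-54016887, plus strand): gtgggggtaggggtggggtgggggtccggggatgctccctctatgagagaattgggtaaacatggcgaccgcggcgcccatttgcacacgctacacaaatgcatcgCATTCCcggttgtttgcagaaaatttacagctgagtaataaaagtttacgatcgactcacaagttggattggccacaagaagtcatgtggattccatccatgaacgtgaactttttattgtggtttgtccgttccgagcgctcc
CATTCC was searched on both strands (as CATTCC or GGAATG) and occurred in 8 of the 27 HOX windows (29.6%), counting that shared window once for each gene, against 4928 of all 35116 windows of that length. The windows that held it belonged to HOXA3, HOXA10, HOXC4, HOXC5, HOXD4, HOXD8, HOXD10 and HOXD13. TGATTGAT, the joint site of PBX and HOX proteins, was searched in the same way and was in the windows of HOXA2 and HOXD11 (7.41% of HOX windows against 0.484% of all windows), neither of which held CATTCC. These matches describe letters in a window and do not show that any factor binds there.

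HGC-27 cells expressed a HOX set dominated by the high paralog numbers. Averaged over all libraries, 3 genes were at 10 FPKM or more, 20 were between 1 and 10 FPKM, 11 were between 0.1 and 1 FPKM and 5 were below 0.1 FPKM, and none was listed at 0 in every library. Thus 23 of 39 HOX genes (59.0%) reached a mean of 1 FPKM, which is also the level needed to enter the tests, against 11225 of 20345 rows (55.2%). By paralog number, 13 of 16 genes numbered 9 to 13 reached it (81.2%, median level 4.06 FPKM), against 10 of 23 genes numbered 1 to 8 (43.5%, median level 0.923 FPKM). The median level over all rows was 2.02 FPKM.

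**Figure D1:**
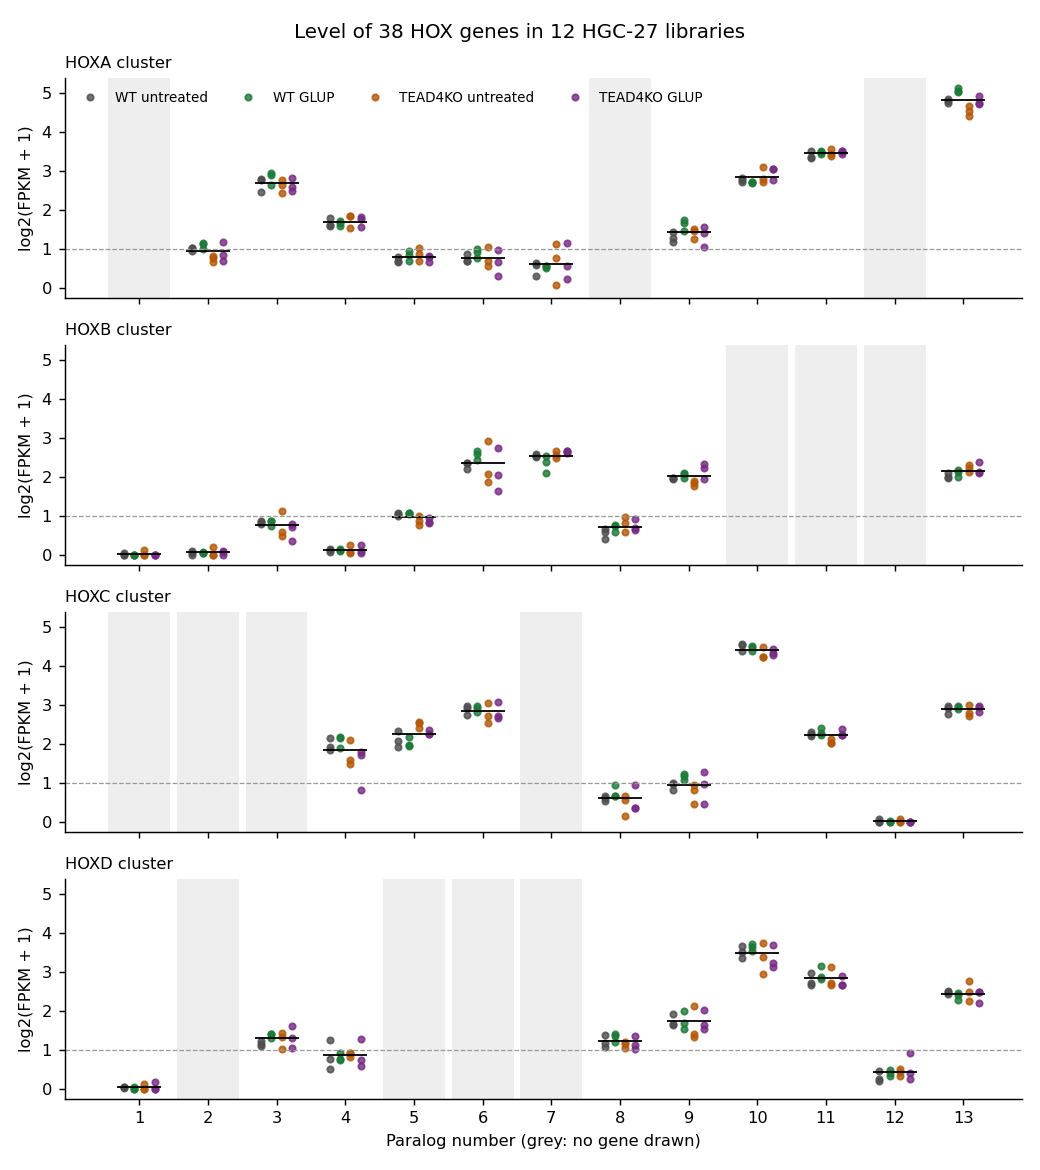
Levels of 38 HOX genes as log2(FPKM + 1), by paralog number (horizontal axis) in 4 panels for the clusters, where each point is 1 library coloured by group, black bars are means over the 12 libraries, the dashed line marks 1 FPKM and grey marks numbers for which no gene is drawn. HOXA13 (20.4 to 33.7 FPKM) and HOXC10 (17.9 to 22.7 FPKM) stand above the rest, and HOXB1, HOXC12 and HOXD1 lie at the bottom.

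HOXA13, which patterns the distal limb, hindgut and genital tubercle, was the highest HOX gene, at a mean of 27.1 FPKM and above 87.7% of all rows. It was first among the HOX genes in 11 of 12 libraries, and HOXC10 was first in the remaining library, TEAD4KO untreated replicate 2 (21.5 against 20.4 FPKM). HOXC10, a gene of lumbar and hindlimb identity, had a mean of 20.3 FPKM. HOXD10, which specifies lumbar motor neurons, followed at 10.2 FPKM and HOXA11, needed for the forearm and the uterus, at 9.97 FPKM, and their ranges overlapped (6.70 to 12.4 and 9.06 to 10.9 FPKM). HOXA13 alone made up 18.6% of the summed HOX level of 145.9 FPKM, HOXA13 with HOXC10 made up 32.5%, and these 4 genes made up 46.3%. By paralog group, number 13 held 28.4% of the sum (41.4 FPKM over HOXA13, HOXB13, HOXC13 and HOXD13), number 10 held 25.1% (36.6 FPKM over HOXA10, HOXC10 and HOXD10) and number 11 held 13.6%.

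The HOXA cluster on chromosome 7 gave the largest share of that sum (38.8%), with 7 of its 11 genes at 1 FPKM or more. Its levels climbed towards the tail end, since HOXA9 (1.69 FPKM), a gene of blood progenitors that is often high in leukaemia, HOXA10 (6.12 FPKM), HOXA11 and HOXA13 kept that order in 12 of 12 libraries. At the head end HOXA3, which acts in the pharyngeal arches, was at 5.48 FPKM and HOXA4 at 2.24 FPKM. Between these lay a stretch of low genes, HOXA5 (0.730 FPKM), HOXA6 (0.713 FPKM) and HOXA7 (0.537 FPKM), and HOXA2 (0.923 FPKM) was also below 1 FPKM. HOXA9 and HOXA10 share exons with a readthrough row (ENSG00000257184, 0.0789 to 0.839 FPKM), so reads between them can be split in more than one way.

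The HOXC cluster on chromosome 12 held 30.5% of the sum, with 6 of 9 genes at 1 FPKM or more. HOXC10 stood above both of its neighbours in 12 of 12 libraries, with HOXC11 at 3.69 FPKM and HOXC9 at 0.935 FPKM. HOXC13, known for its role in hair and nails, was at 6.46 FPKM, HOXC6 at 6.23 FPKM, HOXC5 at 3.75 FPKM and HOXC4 at 2.59 FPKM. HOXC8 was at 0.525 FPKM and HOXC12 was listed at 0 in 9 of 12 libraries. HOXC12 thus lay near 0 between a pair of expressed neighbours, HOXC11 and HOXC13.

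The HOXD cluster on chromosome 2 held 18.5% of the sum, again with 6 of 9 genes at 1 FPKM or more. HOXD10 was its highest gene in 12 of 12 libraries, followed by HOXD11 (6.14 FPKM), HOXD13 (4.44 FPKM), a gene of the digits, HOXD9 (2.31 FPKM), HOXD3 (1.45 FPKM) and HOXD8 (1.32 FPKM). HOXD12 was low, at 0.340 FPKM between HOXD11 and HOXD13, as its paralog HOXC12 was in its own cluster. HOXD4 was at 0.830 FPKM and HOXD1 was listed at 0 in 6 libraries. Exons of HOXD10 and HOXD11 overlap on the same strand, so part of their reads cannot be assigned to 1 of them with certainty.

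The HOXB cluster on chromosome 17 was the least expressed, with 12.2% of the sum and 4 of 10 genes at 1 FPKM or more. HOXB7 was at 4.78 FPKM, HOXB6 at 4.16 FPKM, HOXB13, a gene of the prostate and tail end, at 3.41 FPKM and HOXB9, which patterns the ribs, at 3.04 FPKM. Its head end was close to silent. HOXB1, which specifies a hindbrain segment, was listed at 0 in 10 of 12 libraries and reached at most 0.0822 FPKM, HOXB2 was listed at 0 in 4 libraries and HOXB4 stayed between 0.0292 and 0.197 FPKM. HOXB5 (0.949 FPKM) lay just below the level needed for testing, HOXB3 was at 0.699 FPKM and HOXB8 at 0.629 FPKM. HOXD8 (1.32 FPKM) and HOXD3 (1.45 FPKM) were close above that limit, and HOXB5 and HOXC9 were just below it.

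By group, the summed HOX level was 145 ± 4.72 FPKM in untreated WT (SD, n = 3), 156 ± 2.7 FPKM in WT with GLUP, 138 ± 12.2 FPKM in untreated TEAD4KO and 144 ± 11.6 FPKM in TEAD4KO with GLUP. The SD of the sum was wider in both TEAD4KO groups. The sum over the HOXA cluster was at 55.0 ± 0.782, 62.9 ± 0.497, 51.7 ± 3.48 and 56.7 ± 1.81 FPKM in the same order. Within that sum HOXA13 was likewise higher with GLUP under each label and lower in TEAD4KO under each treatment. Its group means were 26.8 ± 1.01, 32.5 ± 1.05, 22.3 ± 1.93 and 26.7 ± 2.1 FPKM in the same order.

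The next comparisons ask whether GLUP changed HOX expression, in WT cells, in TEAD4KO cells and as the mean over both. No HOX gene passed the test in any of them, and none of the 23 HOX genes tested changed by more than 2-fold. Tests were made on log2(FPKM + 1) with limma, where called means a Benjamini-Hochberg adjusted p under 0.05 over the 11225 rows tested, and that scale understates the change of low genes. In WT cells 17 of 23 HOX genes were higher with GLUP and 6 were lower, with a median log2 difference of 0.07 against 0.01 over all rows, 0 called (0.00891% of all rows were called) and 2 at an unadjusted p under 0.05. In TEAD4KO cells 14 were higher and 9 lower, with a median of 0.03 against -0.02 over all rows, 0 called (0.0445% of all rows) and 3 at an unadjusted p under 0.05. Over both genotypes 17 were higher and 6 lower, with a median of 0.05 against -0.004 over all rows, 0 called (0.258% of all rows) and 3 at an unadjusted p under 0.05.

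HOXA13 (ENSG00000106031, GRCh37 chromosome 7, 27233122 to 27239710, minus strand) had the smallest p of the HOX genes in each of these comparisons. In untreated WT it was at 25.8, 26.9 and 27.8 FPKM, and in WT with GLUP at 31.6, 32.1 and 33.7 FPKM. In untreated TEAD4KO it was at 24.3, 20.4 and 22.4 FPKM, and in TEAD4KO with GLUP at 25.7, 25.3 and 29.1 FPKM. Each GLUP library was thus above each untreated library of its own genotype label, by 1.21-fold between the means in WT and 1.20-fold in TEAD4KO. The log2 change was 0.27 ± 0.07 (SE) in WT with adjusted p = 0.703 (limma), and 0.25 ± 0.07 in TEAD4KO with adjusted p = 0.523. Over both genotypes it was 0.26 ± 0.05 with adjusted p = 0.0663, which misses the threshold. Across 22 alternative settings the last adjusted p ranged from 0.0158 to 0.249 and passed in 6, of which 1 was the fit without TEAD4KO untreated replicate 1 (adjusted p = 0.0341). In WT alone it passed in 1 of 23 settings, with array weights (adjusted p = 0.0156). Over all rows with reference values the GLUP change rose with transcript length (Spearman's rho 0.244) and fell with GC content (rho -0.215), and with a correction for both HOXA13 was at 0.24 (adjusted p = 0.0158).

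**Figure D2:**
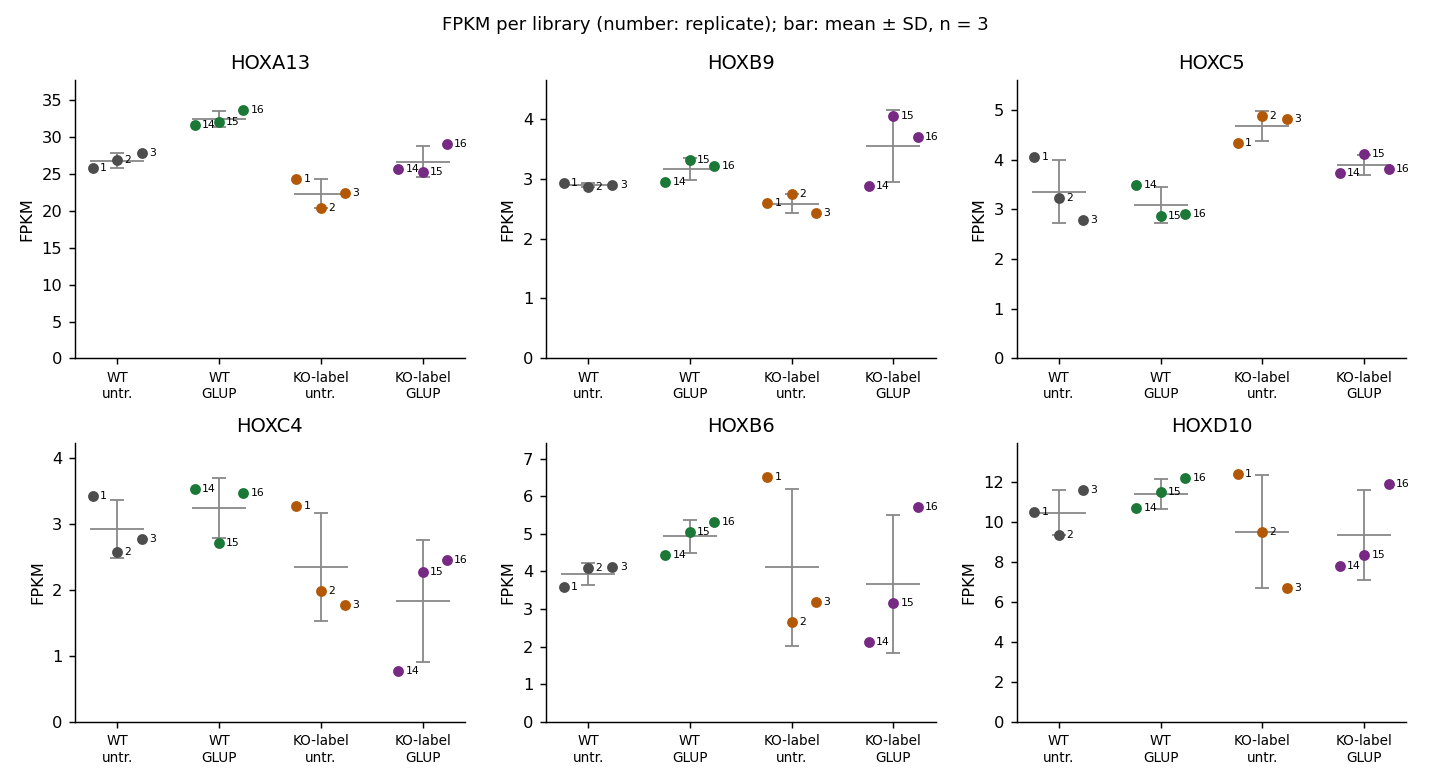
FPKM (vertical axis from 0) of 6 HOX genes in each library, with replicate numbers beside the points and grey bars for the mean ± SD of the 3 libraries of a group (untr., untreated, and KO-label, libraries labelled TEAD4KO). HOXA13 points with GLUP lie above the untreated points of the same genotype label, and in HOXB6 and HOXD10 TEAD4KO replicates 1 and 16 lie above the other TEAD4KO points.

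HOXB9 was the other HOX gene whose GLUP libraries lay above all untreated libraries under both labels. It was at 2.93, 2.86 and 2.89 FPKM in untreated WT and at 2.95, 3.31 and 3.21 FPKM in WT with GLUP. It was at 2.59, 2.74 and 2.42 FPKM in untreated TEAD4KO and at 2.88, 4.04 and 3.70 FPKM in TEAD4KO with GLUP. The difference was small in WT, where the highest untreated and the lowest GLUP library were almost level, and larger in TEAD4KO. Such separation in both genotypes with GLUP higher was found for these 2 HOX genes and for 0.998% of all rows, and with GLUP lower for 0 HOX genes and 0.659% of all rows.

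Within WT alone the groups did not overlap for 5 HOX genes that were higher with GLUP (HOXA9, HOXA13, HOXB6, HOXB9 and HOXD3; 10.2% of all rows) and 1 that was lower (HOXA10; 7.16% of all rows). HOXC9, which lay below the level for testing, was also higher in each WT library with GLUP (1.12 to 1.36 FPKM) than in untreated WT (0.761 to 0.985 FPKM). The shares given here cover only rows tested. Within TEAD4KO the groups did not overlap for 3 that were higher (HOXA13, HOXB9 and HOXC11; 2.85% of all rows) and 1 that was lower (HOXC5; 3.98% of all rows). HOXC11 was at 3.04, 3.35 and 3.08 FPKM in untreated TEAD4KO and at 3.71, 3.66 and 4.19 FPKM with GLUP, while its WT groups overlapped (3.62 to 3.94 and 3.65 to 4.34 FPKM). None of these passed the test over all rows.

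Whether the GLUP difference itself depended on the genotype label was tested as an interaction. No HOX gene passed (0 of 23, with 0.00891% of all rows called), and 0 HOX genes had an unadjusted p under 0.05. The smallest p belonged to HOXA9, whose GLUP difference was lower in TEAD4KO than in WT by a log2 value of -0.38 ± 0.19 (SE; limma adjusted p = 1.00, and between 0.823 and 1.00 over 23 alternatives). HOXA9 was at 1.27 to 1.68 FPKM in untreated WT and 1.73 to 2.32 FPKM in WT with GLUP. The TEAD4KO ranges, 1.38 to 1.83 FPKM untreated and 1.08 to 1.96 FPKM with GLUP, overlapped. A p that misses the threshold does not show that GLUP acted alike under both labels.

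The comparison of TEAD4KO with WT libraries asks what differs with the genotype label, untreated, with GLUP and as the mean over both treatments. HOXA13 was lower and HOXC5 was higher in libraries labelled TEAD4KO in the mean over both treatments. These were 2 of 23 HOX genes tested, 1 in each direction, where 20.0% of all rows were called (14.4% higher and 5.67% lower). In all, 8 HOX genes were higher and 15 lower, 6 had an unadjusted p under 0.05, and the median log2 difference was -0.07 against 0.01 over all rows. All 23 log2 differences lay between -0.44 and 0.33.

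**Figure D3:**
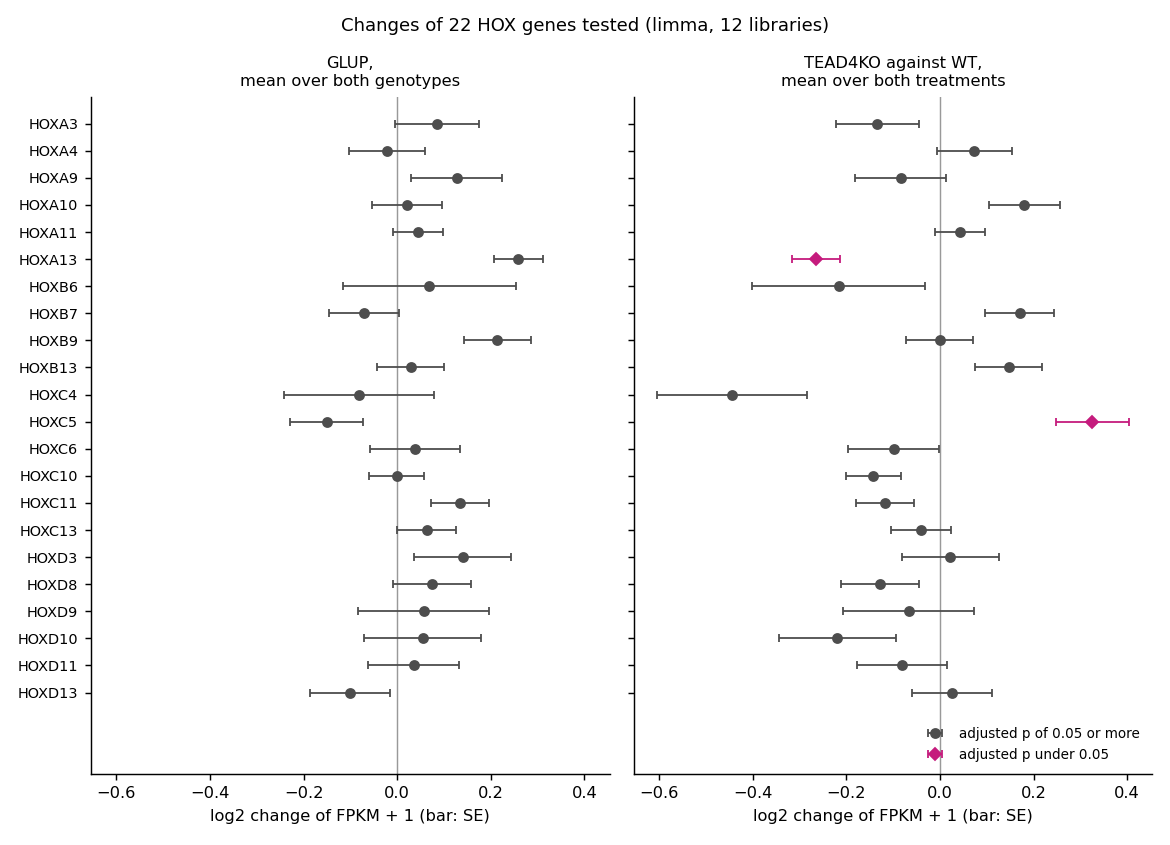
Log2 changes of FPKM + 1 (horizontal axis; points, with SE as bars) for 22 HOX genes tested, for GLUP averaged over both genotype labels (left) and for TEAD4KO against WT averaged over both treatments (right). Diamonds mark an adjusted p under 0.05, which HOXA13 (-0.26) and HOXC5 (0.33) had on the right and no gene had on the left.

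HOXA13 had a log2 difference of -0.26 ± 0.05 between the labels (SE; limma adjusted p = 0.00393). Its 6 TEAD4KO libraries and 6 WT libraries, given above, did not overlap within either treatment, and the ratio of the group means was 0.834 untreated and 0.822 with GLUP. The call held in 24 of 24 alternative settings, with adjusted p between 1.8e-04 and 0.0151. Under GLUP alone the log2 difference was -0.28 ± 0.07 and passed narrowly (adjusted p = 0.0456), as the 1 HOX gene of 23 called there, where 5.84% of all rows were called and 0.935% were called lower. That call was lost in 9 of 12 fits that left out 1 library (adjusted p up to 0.184, without WT GLUP replicate 16), and held without TEAD4KO untreated replicates 1 or 2 or TEAD4KO GLUP replicate 16. Of the remaining 9, leaving out any WT library, TEAD4KO untreated replicate 3 or TEAD4KO GLUP replicates 14 or 15 ended it, as did the correction for GC content and transcript length (adjusted p = 0.0526). In untreated cells alone 0 of 23 HOX genes were called (5.42% of all rows) and 3 had an unadjusted p under 0.05.

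HOXC5 (ENSG00000172789, GRCh37 chromosome 12, 54426834 to 54429145, plus strand), a gene of cervical identity, was at 4.05, 3.23 and 2.79 FPKM in untreated WT and at 3.5, 2.86 and 2.91 FPKM in WT with GLUP. Untreated TEAD4KO libraries had 4.33, 4.88 and 4.83 FPKM and those with GLUP had 3.74, 4.12 and 3.81 FPKM. Each TEAD4KO library was above each WT library of the same treatment, by 1.39-fold between the means untreated and 1.26-fold with GLUP. The log2 difference was 0.33 ± 0.08 over both treatments (SE; limma adjusted p = 0.0112) and 0.39 ± 0.11 in untreated cells (adjusted p = 0.0550). The untreated value passed without WT untreated replicate 1 (adjusted p = 0.0352), TEAD4KO untreated replicate 1 (0.0407) or TEAD4KO GLUP replicate 16 (0.0473).

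A row that overlaps HOXC5 also differed between the groups, and how reads were shared between the 2 rows is not given in the sources used here. ENSG00000273049, a readthrough row, shares exons with HOXC5 and with HOXC10. It was at 1.4, 3.0 and 2.5 FPKM in untreated WT, at 0 in all 3 WT libraries with GLUP, and at no more than 0.497 FPKM in any library labelled TEAD4KO. Within untreated WT it was lowest in replicate 1, in which HOXC5 was highest, whereas in WT with GLUP, with the row at 0, the mean of HOXC5 was 3.09 FPKM against 3.36 FPKM in untreated WT. When both rows were summed, the log2 difference of HOXC5 between the labels shrank to 0.05 (adjusted p = 0.617), and in untreated cells it turned to -0.20. With the sum, GLUP lowered the value in WT (log2 change -0.70, adjusted p = 0.0251), where the readthrough row was at 0. In untreated cells the direction for HOXC5 therefore depended on whether the overlapping row was counted with it.

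Transcript length and GC content also moved with the genotype label. Over 11077 rows with reference values, the log2 difference between labels fell with transcript length (Spearman's rho -0.497) and rose with GC content (rho 0.247), where the rows share the same 12 libraries. HOXA13 has 5071 exon bases and HOXC5 has 1611. After a correction of the libraries for both trends, HOXA13 was at -0.22 (adjusted p = 0.00432) and HOXC5 at 0.16 (adjusted p = 0.169). HOXC10 then also passed, at -0.24 (adjusted p = 0.0189).

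HOXC4 shares a RefSeq start window with HOXC5, although these genes do not begin together in the annotation used for gene positions. HOXC4 went in the opposite direction to HOXC5. It was at 3.43, 2.58 and 2.77 FPKM in untreated WT, 3.53, 2.72 and 3.48 FPKM in WT with GLUP, 3.28, 1.98 and 1.78 FPKM in untreated TEAD4KO and 0.767, 2.28 and 2.46 FPKM in TEAD4KO with GLUP. The mean log2 difference between the labels was -0.44 ± 0.16 (SE; limma adjusted p = 0.0668), the largest fall among the 23 HOX genes tested, and it did not pass in the model without a block. With the replicate number as a block it passed (adjusted p = 0.0371), as it did without both TEAD4KO libraries nearest to WT (-0.63, adjusted p = 0.00511), without TEAD4KO untreated replicate 1 alone (0.0229) and without TEAD4KO GLUP replicate 16 alone (0.0228). Its statistics were picked out after its values were seen. Exons of HOXC4 overlap those of HOXC6, which limits how reads can be divided between them.

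Separation of the groups by genotype label under both treatments was seen for HOXC5 (higher in TEAD4KO; 9.82% of all rows) and HOXA13 (lower; 3.71% of all rows). In untreated cells the groups did not overlap for 2 higher HOX genes (HOXB13 and HOXC5; 18.3% of all rows) and 3 lower ones (HOXA13, HOXB9 and HOXC11; 7.47% of all rows). With GLUP they did not overlap for 3 higher (HOXA10, HOXB7 and HOXC5; 16.7% of all rows) and 2 lower ones (HOXA13 and HOXC4; 12.9% of all rows). Among genes below the level for testing, HOXB5 was lower in TEAD4KO under both treatments, at 0.986 to 1.11 FPKM in untreated WT against 0.713 to 0.983 FPKM, and at 1.06 to 1.11 FPKM in WT with GLUP against 0.746 to 0.931 FPKM. HOXA2 was lower in untreated TEAD4KO (0.578 to 0.763 FPKM) than in untreated WT (0.933 to 1.04 FPKM). The share of all rows below that level that separated in this way is not given here.

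The spread among TEAD4KO libraries bears on each of these comparisons. The main model takes 1 spread per gene over all 4 groups. The SE of a GLUP change is therefore the same in WT and in TEAD4KO, as for HOXA13 (0.07 in both), although the spreads differed. The median SD of log2(FPKM + 1) within a group was 0.0891 in WT and 0.161 in TEAD4KO over the HOX genes tested, against 0.0762 and 0.141 over all rows. It was wider in TEAD4KO for 18 of 23 HOX genes (78.3%) and for 86.2% of all rows. The 2 libraries nearest to WT were TEAD4KO untreated replicate 1 and TEAD4KO GLUP replicate 16. Both lay above every other library labelled TEAD4KO for 8 HOX genes (34.8%, against 22.8% of all rows). These were HOXB6, HOXC4, HOXC6, HOXD3, HOXD9, HOXD10, HOXD11 and HOXD13. Both libraries lay below every other library labelled TEAD4KO for HOXA10 and HOXD8 (8.70%, against 13.5% of all rows).

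**Figure D4:**
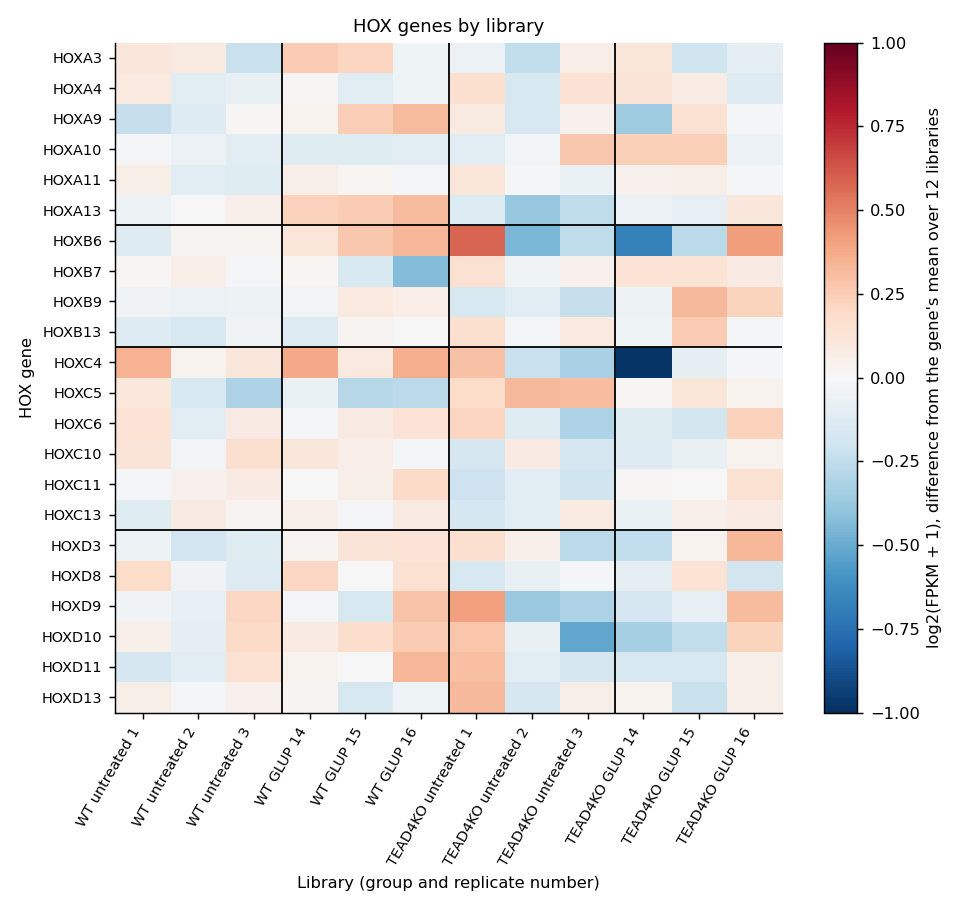
Deviation of log2(FPKM + 1) from the mean of each gene over the 12 libraries (colour) for 22 HOX genes tested (rows, by cluster) in each library (columns, by group). TEAD4KO untreated replicate 1 is above the mean for HOXB6, HOXC4 and most HOXD genes, whereas the other untreated TEAD4KO libraries are below it for HOXB6, HOXC4, HOXD9, HOXD10 and HOXD11.

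HOXB6 is an example, at 6.51, 2.65 and 3.20 FPKM in untreated TEAD4KO and 2.13, 3.16 and 5.71 FPKM in TEAD4KO with GLUP, against 3.58 to 4.11 and 4.44 to 5.31 FPKM in WT. HOXD10 was at 12.4, 9.50 and 6.70 FPKM and at 7.79, 8.34 and 11.9 FPKM in the same TEAD4KO groups, against 9.34 to 11.6 and 10.7 to 12.2 FPKM in WT. Replicates 1 and 16 were level with or above WT in both genes, and the other TEAD4KO libraries were mostly lower. Without both of those libraries, 8 HOX genes were called between the labels over both treatments, with HOXA10 (log2 0.27) and HOXC5 (0.35) higher and HOXA13 (-0.33), HOXB6 (-0.52), HOXC4 (-0.63), HOXC6 (-0.23), HOXD9 (-0.27) and HOXD10 (-0.40) lower. Leaving out TEAD4KO untreated replicate 1 alone gave 5 and TEAD4KO GLUP replicate 16 alone gave 4. That choice was made after the data were seen, and it takes out the libraries that differed least from WT. In the main fit 20.0% of all rows were called between the labels over both treatments. The share of all rows called without these libraries is not given here, so the counts cannot be read as particular to HOX genes. Exons of HOXB6 overlap those of HOXB3 on the same strand, and exons of HOXC6 overlap those of HOXC4 and HOXC9. This limits how their reads can be divided.

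Genes that work with or upon the clusters were counted from lists, each beside the 5.67% of all rows called lower and 14.4% called higher between the labels. Of 28 Polycomb genes tested, 0 rose and 7 fell in TEAD4KO over both treatments (median log2 difference -0.03, against 0.01 over all rows). PHC1, a subunit of the complex that compacts chromatin, was at -0.29 ± 0.06 (SE; limma adjusted p = 0.00358), SUZ12, a core subunit of the complex with the methyltransferase, at -0.25 ± 0.06 (adjusted p = 0.00779), AEBP2, an accessory subunit of that complex, at -0.20 ± 0.06 (adjusted p = 0.0277) and PCGF5 at -0.19 ± 0.06 (adjusted p = 0.0314). Corrected for length and GC content, PHC1 and SUZ12 still passed (adjusted p = 0.00629 and 0.00795), AEBP2 and PCGF5 did not (0.0544 and 0.152), and the list gave 4 lower and 1 higher. RBBP7, a histone-binding subunit and the highest member, was at 43.6 FPKM.

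Of 19 genes of the MLL/COMPASS complexes, their partners and related demethylases, 0 rose and 3 fell (median -0.10). KMT2A, the MLL methyltransferase known for keeping HOX genes on, was at 17.0 to 19.8 FPKM in untreated WT, 17.6 to 19.9 FPKM in WT with GLUP, 10.5 to 15.5 FPKM in untreated TEAD4KO and 10.2 to 16.9 FPKM in TEAD4KO with GLUP. Its log2 difference was -0.53 ± 0.11 (SE; limma adjusted p = 0.00608), and no TEAD4KO library reached the lowest WT library. KMT2D, a methyltransferase of enhancers, was at -0.45 ± 0.15 (adjusted p = 0.0453) and NCOA6, a subunit that bridges to nuclear receptors, at -0.31 ± 0.07 (adjusted p = 0.00892). All 3 passed after the length and GC correction (adjusted p = 0.00562, 0.0241 and 0.0107), and with the replicate block 5 fell, with ASH1L and KMT2C added (adjusted p = 0.00967 and 0.0217). NCOA6 and PHC1 were also called with GLUP alone (-0.40 and -0.33; adjusted p = 0.0367 and 0.0292), and with the replicate block KMT2A, KMT2C and KMT2D were too (adjusted p = 0.0116, 0.0477 and 0.0241). PSIP1, which tethers MLL to chromatin, was the highest member at 61.1 FPKM.

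All 9 TALE cofactors were tested, 0 rose and 2 fell (median -0.10). PBX2, a partner of HOX proteins on DNA and the highest member at 28.3 FPKM, was at -0.17 ± 0.05 (SE; limma adjusted p = 0.0267). After the correction PBX2 still passed (adjusted p = 0.00486), as the 1 member of the list that did. MEIS1 and MEIS2 were at 5.78 and 11.7 FPKM. Of the 7 CDX and retinoic acid genes tested of 14, 0 rose and 0 fell (median 0.01), with the receptor RARG highest at 61.6 FPKM. Among the ParaHox genes, evolutionary sisters of the HOX clusters, only CDX2 reached the level for testing (1.15 FPKM) and it was not called.

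Among 12 genes that flank the clusters, 8 were tested and 1 rose and 1 fell (median 0.01). SMUG1, a DNA repair glycosylase beside the HOXC cluster, was higher in TEAD4KO at 0.23 ± 0.07 (SE; limma adjusted p = 0.0320), and CBX5, which encodes a heterochromatin protein and lies on the same side, was lower at -0.31 ± 0.07 (adjusted p = 0.00708) and was the highest of the list at 52.5 FPKM. After the correction CBX5 passed (adjusted p = 0.00914) and SMUG1 did not (0.0861), and with the replicate block 2 rose, with MTX2 added (adjusted p = 0.0241). PRAC1, next to HOXB13, was at 15.6 FPKM, above every HOXB gene. EVX1 and EVX2, homeobox genes at the tail ends of the HOXA and HOXD clusters, were at 0.674 and 0.169 FPKM. No gene of these lists was called for GLUP in WT, in TEAD4KO or over both without the correction. With it, the retinoic acid receptor RARA was called higher with GLUP over both genotype labels (0.19, adjusted p = 0.0354, against 0.17 and 0.234 without it).

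Genes of general use and of other cell types differed between the labels as well. Of 14 genes used by every cell, 3 rose and 1 fell, with RPLP0 at 0.39, PPIA at 0.33, GAPDH at 0.26 and POLR2A at -0.35 on the log2 scale (limma adjusted p = 0.00647, 0.0476, 0.0283 and 0.00501), and EEF1A1 was the highest at 2815 FPKM. After the length and GC correction RPLP0 and POLR2A still passed (adjusted p = 0.0217 and 7.07e-04), and PPIA and GAPDH did not (0.0604 and 0.300). With the replicate block 7 rose and 1 fell. The summed level of 11 mesenchymal markers was 2030 to 2110 FPKM in untreated WT, 2040 to 2050 FPKM in WT with GLUP, 2230 to 2290 FPKM in untreated TEAD4KO and 2120 to 2450 FPKM in TEAD4KO with GLUP. Within it VIM rose (0.23, adjusted p = 0.0193) and FN1 fell (-0.42, adjusted p = 0.0342). Corrected, VIM passed (adjusted p = 0.0414) and FN1 did not (0.0665), and COL3A1 rose (0.11, adjusted p = 0.0304) and COL1A1 fell (-0.28, adjusted p = 0.0353). With the replicate block 1 mesenchymal marker rose and 3 fell. The gastric epithelial sum overlapped between labels (17.1 to 20.0 FPKM in WT and 15.8 to 22.4 FPKM in TEAD4KO), with KRT8 called higher (0.31, adjusted p = 0.0451), but not after the correction (0.0999), where MUC1 was called lower (-0.36, adjusted p = 0.00571). The part of these shifts in the HOX differences was not tested.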

How the data were processed

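Per the labels, the authors prepared the libraries by Illumina protocols from Trizol-extracted RNA, and their methods give an online cloud platform for the analysis. The submitters' processing notes name HISAT2, Cufflinks, RSEM and hg19, with neither versions nor roles. The authors deposited 1 table of FPKM values, with 1 row per Ensembl gene and 1 column per sample, and replicates were not pooled. Titles matched all 12 columns to their samples, and no pair was identical. FPKM depends on length and on the library total, so a shift in abundant genes or in fragment length reaches all values. Whole reads could not be recovered (the most common ratio between libraries held 0.906% of low rows), so depth and its precision are unknown and no count model was used.

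GENCODE release 44, lifted to GRCh37, gave symbols, positions, exon lengths and GC content for 96.5% of rows, and start windows came from RefSeq. HOX noncoding RNAs were not analysed here. The 11225 rows whose mean reached 1 FPKM were fitted as log2(FPKM + 1) with limma 3.58.1 in R 4.3.3, in 1 model of 4 group means with an eBayes intensity trend and no covariates. Tests were two-sided, with Benjamini-Hochberg adjustment in each of 7 comparisons, which share libraries. Tables were made with Python 3.11.15 and pandas 2.3.3. The fit was tested on simulated data. The HOX genes and the other lists were chosen with earlier results of these data known. Some genes are not reported here by name, although the counts include them, and the other HOX genes are all named. Statistics are given for those with an adjusted p under 0.05, or for the smallest p where none passed, and from each other list for up to 4 called members a comparison and the highest member. GLUP libraries with the same number correlated at 0.106, 0.152 and 0.336 between genotype labels (deviations from group means). Only the alternative fits with the replicate block paired libraries by number. The numbers come from the sample titles, the main model has no block, and pairs with different numbers also reached 0.134. Alternatives changed the pseudocount (0.1), the filter (none, or a mean of 5 FPKM), the scaling (median-ratio or quantile), the eBayes trend, weights per library, GC content and length (splines with 5 degrees of freedom), the groups fitted, the replicate block, and the libraries, each left out in turn. A further pair was added after seeing the data, the fit without 2 TEAD4KO libraries and HOXC5 summed with its readthrough row.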

Additional observations from a re-analysis of the deposited data

How the results depend on the processing

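The number of HOX genes at a mean of 1 FPKM was 23 under each scaling and without any 1 library. The median HOX difference moved by less than 0.0948, the SD of the median deviation of a library, but its sign changed in some settings for GLUP in TEAD4KO, TEAD4KO against WT untreated and with GLUP, and the interaction. Of the counts of HOX genes called, 126 stayed within 1.5 times the reported count and 40 did not, all between 0 and 8 genes. For GLUP in WT the count went from 0 to 1 with array weights (HOXA13) and with HOXC5 summed with its readthrough row. For GLUP over both genotypes it went from 0 to 1 with median-ratio scaling, quantile normalization, array weights, the GC and length correction, the summed HOXC5 row and without both TEAD4KO libraries nearest to WT, and ranged from 0 to 1 when 1 library was left out. For TEAD4KO against WT untreated it went from 0 to 1 with a mean of at least 5 FPKM, median-ratio scaling, quantile normalization and array weights, to 2 without both libraries, and ranged from 0 to 2 when 1 was left out. With GLUP it went from 1 to 0 with no filter, eBayes without trend, the GC and length correction with or without the block, and only the groups compared, to 4 with array weights and to 5 without both libraries, and ranged from 0 to 3 when 1 was left out. Over both treatments it went from 2 to 1 with a mean of at least 5 FPKM and with the summed row, to 6 with array weights and to 8 without both libraries, and ranged from 2 to 5 when 1 was left out. The share of all rows called in each alternative fit is not given here, so a changed count cannot be read as particular to HOX genes. The cause was not tested, except that a mean of at least 5 FPKM takes HOXC5 out of the test. Of the values of named HOX genes, 1 changed direction, HOXC5 untreated with the summed row (-0.2049 on the log2 scale, adjusted p = 0.230). The replicate block gave 3 called genes over both treatments, adding HOXC4 (adjusted p = 0.0371) to HOXA13 and HOXC5, gave adjusted p = 0.0401 for HOXA13 with GLUP, and changed no other call of a HOX gene. It ended no call of the other lists. Untreated libraries with the same number had correlations of -0.0569, 0.203 and -0.0149 and share only a number.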
